A study of Mus musculus with 2 samples.

Results

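Dopamine and noradrenaline are catecholamine transmitters. Tyrosine hydroxylase makes L-DOPA from tyrosine, aromatic amino acid decarboxylase turns it into dopamine, membrane transporters take the transmitters back into the axon, and the monoamine oxidases break them down. The hippocampus receives both as axons from cell bodies in the brain stem and midbrain, and its own neurons carry dopamine receptors that modulate learning and memory. The genes described here are 9 members of this system, chosen by name with earlier results of these data known. They are the dopamine receptors Drd1, Drd2 and Drd4, the noradrenaline transporter Slc6a2 and the dopamine transporter Slc6a3. The rest are the synthesis enzymes Th and Ddc, and the monoamine oxidases Maoa and Maob. Every probe whose single annotated symbol is one of these names was taken, which gave 14 of the 45281 probes on the array and at least 1 probe for each of the 9 genes.

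RNA of mouse hippocampus was hybridised to 2 Illumina bead arrays, 1 per group. The CeCl3 array held RNA of male mice of ICR, an outbred stock, that received cerium chloride, a lanthanide salt, into the stomach once a day for 90 days. Its label lists the doses of 0.5, 1 and 2 mg/kg side by side, and which of the 3, or what mixture of them, the array holds is not known. The control array held RNA of male ICR mice given purified water for the same time. Both labels give an age of 4 weeks, which cannot be the age at the end of 90 days of dosing. The sources used here do not give the number of mice behind each array. With 1 array per group no difference has a replicate check, no p-value across samples is given, and the number of arrays limits the precision. The file headers give the 2 arrays different identifiers, so a difference between arrays cannot be told apart from one between groups. The 95% intervals printed below, called bead intervals, cover the scatter among the beads of a probe within each array and nothing else. In bulk tissue, fewer cells of a type and less RNA per cell cannot be told apart.

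A probe counted as detected where its detection p-value was under 0.01, which held for 38.5% of probes on the CeCl3 array, against 36.3% on the control array. Both arrays carried hippocampal markers. Of 13 subfield markers with a probe 9 were detected on both arrays, among them the dentate markers Prox1, at a log2 signal of 8.84 on the CeCl3 array, against 8.77 on the control array, and C1ql2, at 10.21 on the CeCl3 array, against 10.26 on the control array. Tdo2, Pcp4, Rgs14 and Neurod6 were detected on neither. Both labels say male, yet Xist, the RNA of the inactive X chromosome in female cells, passed detection only on the control array and was lower by at least 14.5-fold, by its brightest probe, on the CeCl3 array. Of the Y-linked genes, 1 of 2 Eif2s3y probes passed detection on the CeCl3 array alone, at a log2 signal of 6.06, below the lowest detected control signal of 6.14, and Kdm5d and Uty were detected on neither array. The part that sex plays in the differences below was not tested.

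Of the 9 genes, 7 were detected on both arrays, Drd4 was detected on the CeCl3 array alone and Maoa on neither. Drd2, Slc6a2, Slc6a3, Th and Maob were lower on the CeCl3 array by between 0.45 and 0.67 on the log2 scale, with bead intervals below 0. Ddc lay lower by 0.22 and Drd1 higher by 0.17, and both intervals held 0. Measured values were lower on the CeCl3 array for 6 of these 7 genes and higher for 1, against 57.7% lower and 42.2% higher among the 9473 genes detected on both arrays. Bead intervals lay below 0 for 5 of the 7 genes, against 13.9% of the 9473, and above 0 for 0 of 7, against 8.59%. Because the members were chosen with earlier results of these data known, these counts are a description and not a test. None of the 7 reached 2-fold in either direction, where 0.496% of genes were 2-fold lower and 0.486% 2-fold higher. The median of the 7 log2 differences was -0.57, against -0.05 over all 9473 genes.

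**Figure D1:**
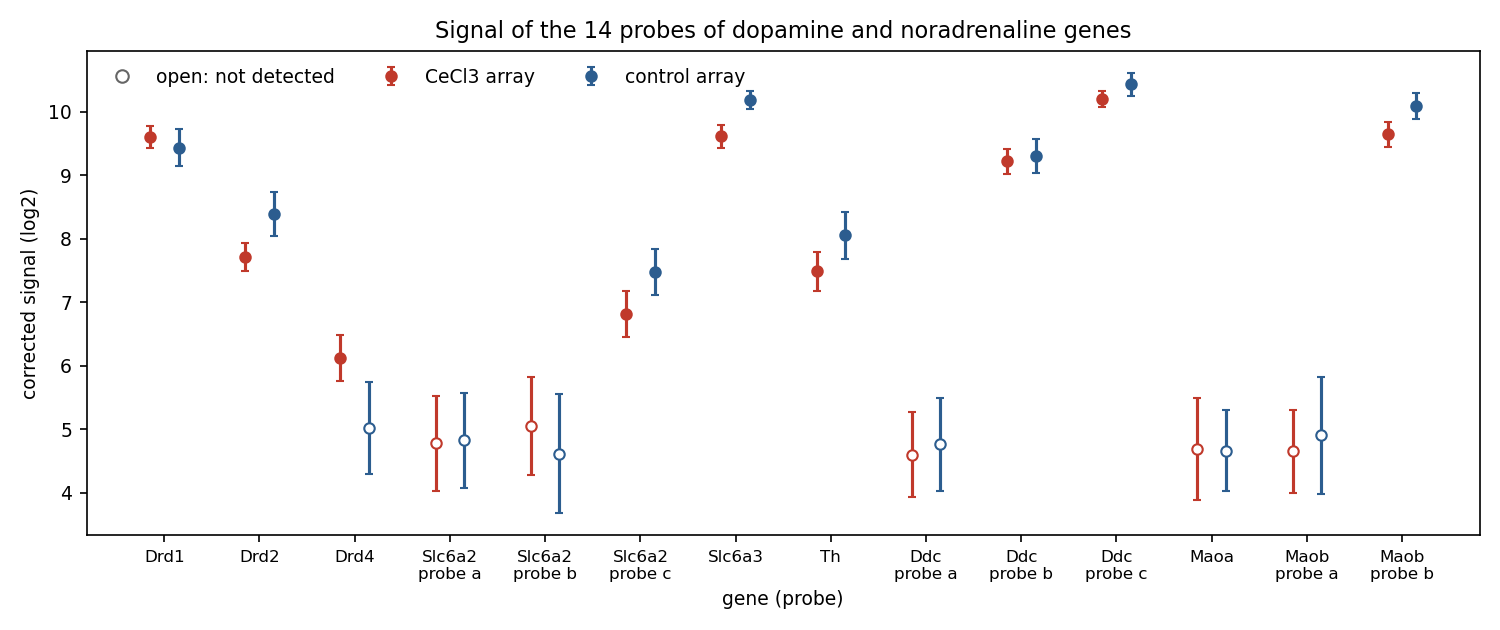
Corrected signal (log2) of the 14 probes on the CeCl3 array (red, left of each pair) and the control array (blue, right), with 95% bead intervals; open points were not detected. Of the probes detected on both arrays, the control point lies above the CeCl3 point for Drd2, Slc6a2 probe c, Slc6a3, Th, Maob probe b and Ddc probes b and c. The open points lie between log2 4.60 and 5.06.

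Drd2 encodes the inhibitory dopamine D2 receptor. Its 1 probe had a deposited signal intensity of 197 (bead standard error 16.1, 36 beads) on the CeCl3 array, against 322 (41.6, 40 beads) on the control array. The log2 difference was -0.67 (bead interval -1.09 to -0.26), a change in level of -37.4%. Of the genes detected on both arrays, 2.22% had a difference as low or lower, so Drd2 lay near the lower end of all genes without standing outside them.

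Drd1 encodes the D1 receptor, which raises cyclic AMP. Its probe read 767 (bead standard error 48.6, 34 beads) on the CeCl3 array, against 678 (70.8, 37 beads) on the control array. The log2 difference was 0.17, its bead interval (-0.17 to 0.51) held 0, and 19.6% of genes had a difference as high or higher. Drd1 was the only one of the 7 genes detected on both arrays whose measured value was higher on the CeCl3 array.

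Drd4 encodes a D2-like receptor. Its probe was dim, with a signal of 57.1 (bead standard error 8.82, detection p-value 0.0085) on the CeCl3 array, against 14.5 (8.26, detection p-value 0.18) on the control array. It passed the detection threshold on the CeCl3 array only narrowly and missed it on the control array. Its log2 signal on the CeCl3 array, 6.12, lay below the lowest detected log2 signal of the control array, 6.14, so no fold is given. No direction is read from it.

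Slc6a2 encodes the transporter that returns noradrenaline to the axon. Of its 3 probes, 1 was detected, with a signal of 99.7 (bead standard error 14.3, 38 beads) on the CeCl3 array, against 166 (22.7, 43 beads) on the control array. The log2 difference was -0.67 (-1.18 to -0.16), and 2.27% of genes had one as low or lower. The other 2 probes, designed on the same RefSeq transcript, were not well above background on either array, with signals of 3.78 and 15.8 on the CeCl3 array, against 5.99 and -5.99 on the control array. The lower value of Slc6a2 thus comes from a single probe, with the widest bead scatter of the member probes detected on both arrays: the beads' coefficient of variation reached 88.6% for CeCl3 and 90.0% for control.

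Slc6a3 encodes the dopamine transporter, a defining gene of midbrain dopamine neurons. Its 1 probe read 769.7 (bead standard error 49.2, 39 beads) on the CeCl3 array, against 1148 (58.1, 50 beads) on the control array. The log2 difference was -0.57 (-0.80 to -0.34). Of genes detected on both arrays, 3.98% lay as low or lower. This was the narrowest bead interval among the 5 genes whose intervals lay below 0.

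Th encodes tyrosine hydroxylase, the rate-limiting enzyme of catecholamine synthesis. Its 1 probe had a signal of 167 (bead standard error 19.0, 35 beads) on the CeCl3 array, against 254 (34.8, 31 beads) on the control array. The log2 difference was -0.57 (-1.05 to -0.10), and 3.88% of genes had one as low or lower. Th and Slc6a3 differed by nearly equal amounts, while the upper end of the Th interval came closer to 0.

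Ddc encodes the decarboxylase that follows tyrosine hydroxylase and also makes serotonin. Its brightest probe read 1170.3 (bead standard error 53.0, 41 beads) on the CeCl3 array, against 1366 (89.9, 34 beads) on the control array, a log2 difference of -0.22 (-0.45 to 0.00). A further probe on the same transcript read 584 (40.8, 50 beads) on the CeCl3 array, against 619 (58.5, 46 beads) on the control array, a log2 difference of -0.08 (-0.41 to 0.24). Both lay lower on the CeCl3 array, with bead intervals that held 0. The remaining probe, designed on a cDNA clone, was not well above background on either array, at -7.20 on the CeCl3 array, against 2.81 on the control array.

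Maob encodes monoamine oxidase B, which in brain is found in astrocytes and serotonergic neurons. Its detected probe read 788 (bead standard error 53.9, 34 beads) on the CeCl3 array, against 1081 (79.6, 45 beads) on the control array. The log2 difference was -0.45 (-0.73 to -0.17), and 7.46% of genes lay as low or lower. A further Maob probe on the same transcript was not well above background on either array, at -3.68 on the CeCl3 array, against 9.58 on the control array. Maoa encodes the related oxidase that prefers noradrenaline and serotonin. Its 1 probe read -1.09 on the CeCl3 array, against -2.91 on the control array, not well above background on either, so these arrays give no measure of Maoa. Both oxidase genes lie on the X chromosome, and the part that sex plays in the Maob value was not tested.

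**Figure D2:**
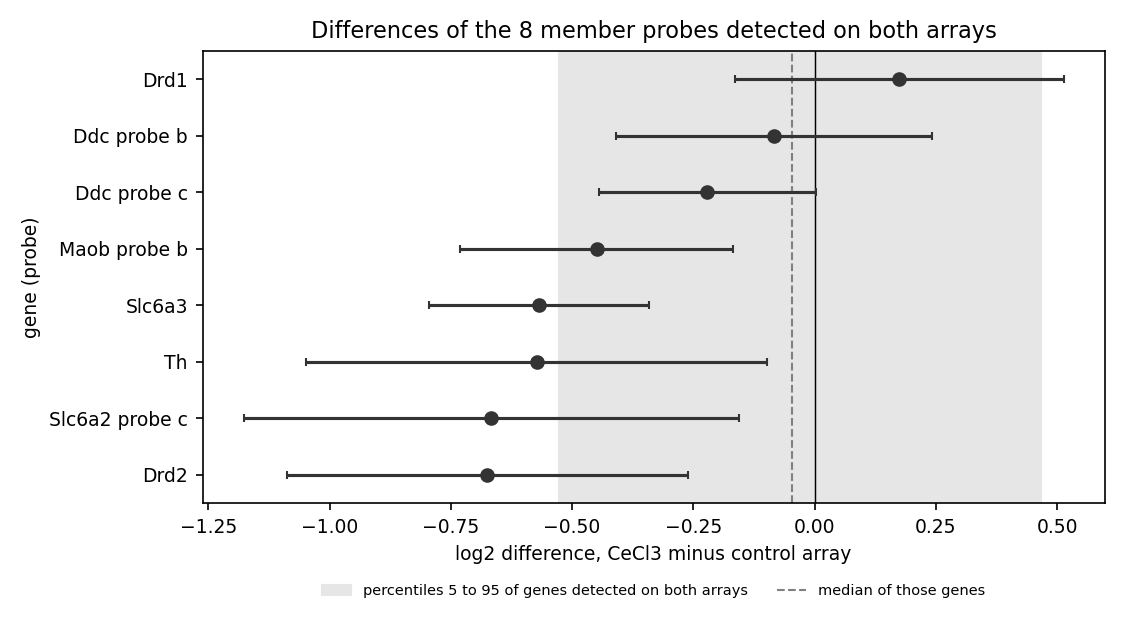
Log2 difference, CeCl3 minus control array, of the 8 member probes detected on both arrays (points) with 95% bead intervals (bars). The grey band runs from -0.53 to 0.47, percentiles 5 to 95 of genes detected on both arrays, and Drd2, Slc6a2, Th and Slc6a3 lie below its lower edge.

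Promoter sequences are shown for Th, Slc6a3 and Drd2, genes that stand for synthesis, uptake and reception and lay lower together. They come from RefSeq on GRCm38.p6, which held 7 of the 9 genes, and run from 250 bases before to 50 after the annotated start, read 5′ to 3′ on the gene's strand. The Th window is chr7:142899946-142900245 on the minus strand, the Slc6a3 window chr13:73536497-73536796 on the plus strand and the Drd2 window chr9:49340153-49340452 on the plus strand. Capitals mark exact matches, on either strand, to the cyclic AMP response element TGACGTCA or to the GC box GGGCGG, a binding motif of Sp1; no match overlaps another in these windows.
Th: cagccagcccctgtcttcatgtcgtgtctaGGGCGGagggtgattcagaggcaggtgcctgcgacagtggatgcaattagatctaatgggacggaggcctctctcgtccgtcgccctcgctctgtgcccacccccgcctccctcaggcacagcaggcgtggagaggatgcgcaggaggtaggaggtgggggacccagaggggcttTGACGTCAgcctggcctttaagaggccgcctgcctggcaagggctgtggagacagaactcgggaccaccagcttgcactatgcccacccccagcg
Slc6a3: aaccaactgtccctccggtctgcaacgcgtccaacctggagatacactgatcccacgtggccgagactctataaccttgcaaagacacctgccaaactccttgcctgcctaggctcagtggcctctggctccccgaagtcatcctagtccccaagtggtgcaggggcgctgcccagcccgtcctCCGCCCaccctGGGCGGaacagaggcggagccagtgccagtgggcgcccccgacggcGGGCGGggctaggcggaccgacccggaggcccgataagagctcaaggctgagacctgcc
Drd2: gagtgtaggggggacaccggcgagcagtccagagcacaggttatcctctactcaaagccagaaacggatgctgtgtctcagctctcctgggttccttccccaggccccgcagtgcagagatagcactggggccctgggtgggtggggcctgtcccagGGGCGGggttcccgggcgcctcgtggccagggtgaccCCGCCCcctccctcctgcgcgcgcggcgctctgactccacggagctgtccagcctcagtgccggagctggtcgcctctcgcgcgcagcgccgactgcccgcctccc

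The Th window holds 1 cyclic AMP response element, from 45 to 38 bases before the start. Of 32851 annotated mouse promoters of this length, 1.79% hold that element, and Th was the only gene of the 7 with a match. GC boxes, present in 35.7% of promoters, occur 1 time in Th, 3 times in Slc6a3 and 2 times in Drd2. They also occur 3 times in Drd4, of which a pair overlaps, 2 times in Maoa and 1 time at each of the 2 annotated starts of Drd1, so the motif is not limited to genes that were lower. At neither of its 2 starts did Ddc hold a GC box. The farther upstream start held an NBRE (AAAGGTCA), the motif of the Nr4a receptors, which is found in 1.51% of promoters and there overlaps a TATA match (TATAAA, 13.6% of promoters). The G and C content was 64.3% for Th, 66.0% for Slc6a3 and 70.3% for Drd2, against a median of 52.7% over all promoters. It was 65.7% and 59.3% at the 2 Drd1 starts, 58.0% for Drd4 and 57.7% for Maoa. At the 2 Ddc starts it was 41.3% and 54.3%. These matches describe letters in the windows, and no binding was measured.

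Other genes of the catecholamine system lay closer to the median of all genes. Of 43 further genes listed for synthesis, storage, reception and signalling, 32 had a named probe and 23 were detected, all on both arrays. Of these 23, 16 were lower and 7 higher, against 57.7% and 42.2% of the 9473 genes detected on both arrays. The median log2 difference of the 23 was -0.04. Bead intervals lay below 0 for 3 and above 0 for 0, where the shares over all 9473 genes were 13.9% and 8.59%.

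Among synthesis genes, Pcbd1 and Qdpr, which regenerate the cofactor tetrahydrobiopterin, had log2 differences of -0.48 (-1.32 to 0.35) and -0.33 (-0.72 to 0.05). Gch1, which starts the synthesis of that cofactor, lay at 0.06 (-0.47 to 0.60) and Pts, of the same route, at -0.10 (-0.40 to 0.20). All 4 intervals held 0. Dbh, which makes noradrenaline from dopamine, and Pnmt, which makes adrenaline, were detected on neither array.

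Detected genes of storage, uptake and breakdown outside the 9 lay near 0. The vesicular monoamine transporter Slc18a2 and its relative Slc18a1 were detected on neither array. The low-affinity monoamine transporter Slc29a4 lay at -0.02 (-0.26 to 0.21), and the aldehyde dehydrogenases Aldh2 at -0.04 (-0.24 to 0.16) and Aldh1a1 at -0.02 (-0.63 to 0.59), the last turning to 0.01 without quantile normalization.

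Of the remaining receptors, Drd3, Drd5 and Adra1b were detected on neither array. Adra2c, an inhibitory adrenergic receptor, lay at -0.58 (-1.04 to -0.11) by its brightest probe, whereas the other detected probe of its 3 gave 0.23 (-0.33 to 0.79). Adra2a and Adrb1 have no probe named here.

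Among 14 detected genes of dopamine receptor signalling 9 were lower and 5 higher, with a median of -0.05 and 2 bead intervals below 0. These counts lie near the shares over all genes (57.7% lower, 42.2% higher, 13.9% with an interval below 0). Gnal, the G protein alpha subunit that couples D1 receptors to adenylyl cyclase in striatum, had a log2 signal of 6.85 on the CeCl3 array, against 7.56 on the control array, a difference of -0.71 (-1.23 to -0.19). Prkar2b, a regulatory subunit of protein kinase A, lay at -0.30 (-0.57 to -0.02), Gnai1 at -0.24 (-0.51 to 0.04) and the arrestin gene Arrb2 at 0.17 (-0.08 to 0.43). Ppp1r1b, the dopamine-regulated phosphatase inhibitor DARPP-32, had a log2 signal of 12.85 on the CeCl3 array, against 12.98 on the control array, a difference of -0.13 (-0.32 to 0.05). Adcy5 and Grk3 were detected on neither array. By the brightest probe of each gene, Gnal and Prkar2b were the 2 of 14 with intervals below 0. Dimmer probes detected on both arrays went both ways, with Rgs9 at 0.67 (0.15 to 1.18), Gnb5 at 0.45 (0.20 to 0.71), Gnao1 at -0.40 (-0.68 to -0.12) and Gnas at 0.70 (0.26 to 1.15) and -0.57 (-0.97 to -0.16). A dimmer Adcy1 probe passed detection on the control array alone and was lower by at least 2.09-fold on the CeCl3 array. The brightest Adcy1 probe lay at 0.13, with an interval that held 0. A further Gnas probe passed on the CeCl3 array alone, and no fold is given for it.

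Transcripts of dopamine, noradrenaline and serotonin cell bodies, which lie outside the hippocampus, were looked for because Slc6a3 and Th were detected. Of 10 midbrain dopamine markers with a probe 6 were detected, 5 of them on both arrays with a median log2 difference of -0.02, and Pitx3, Lmx1b, Foxa2 and Slc18a2 were detected on neither array. Nr4a2, a transcription factor of these neurons, lay at 0.00 (-0.61 to 0.60), and at 0.02 without quantile normalization. En1, at log2 8.76 on the CeCl3 array, against 8.49 on the control array, lay at 0.27 (-0.05 to 0.60), and En2, at log2 10.42 on the CeCl3 array, against 10.60 on the control array, lay at -0.18 (-0.45 to 0.09); these homeobox genes mark midbrain and cerebellum. Ret, a receptor of the GDNF family ligands, lay at -0.45 (-0.71 to -0.20) and -0.63 (-1.05 to -0.21) on the 2 of its 3 probes that were detected. The summed signal of the 6 detected markers was 2685 on the CeCl3 array, against 2969.6 on the control array. So Ret was lower beside Slc6a3 and Th, while the other 4 markers detected on both arrays had intervals that held 0 on their brightest probes.

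The noradrenergic markers Phox2a and Dbh were detected on neither array, although Slc6a2 was detected on both. The serotonergic markers Tph2, the serotonin synthesis enzyme, and Slc6a4, the serotonin transporter, lay at -0.20 (-0.52 to 0.12) and -0.52 (-0.86 to -0.19). Their summed signal was 755 on the CeCl3 array, against 952 on the control array.

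Hypothalamic genes were also present. Of 7 with a probe 5 were detected, with a summed signal of 4402 on the CeCl3 array, against 5952 on the control array. Pmch lay at -0.43 (-0.68 to -0.19), Oxt at -0.88 (-1.10 to -0.67) and Avp at -0.39 (-0.73 to -0.06), while Hcrt lay at 0.04 (-0.30 to 0.38) and Trh at 0.10 (-0.27 to 0.47). The hypothalamus holds dopamine neurons of its own. What part a different mix of tissue plays in the lower values of Th, Slc6a3 and Slc6a2 was not tested.

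Markers of cells that carry dopamine receptors were closer to equal. All 8 striatal markers with a probe were detected. By the brightest probe of each gene the median was -0.05, the range -0.21 to 0.16, and all 8 bead intervals held 0. Other probes of Rgs9 (0.67, 0.15 to 1.18) and Pde1b (0.19, 0.02 to 0.36) had intervals above 0. Gpr6 lay at -0.06, Penk at -0.05 and Tac1 at -0.21. Their summed signal was 28521 on the CeCl3 array, against 29143 on the control array. Calb2, a marker of the hilar mossy cells that express Drd2 in mouse hippocampus, lay at -0.07 (-0.29 to 0.15), and Calcrl and Csf2rb2 were detected on neither array. The part that cell numbers play in the lower value of Drd2 was not tested.

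For the cells of Maob, 5 of 6 astrocyte markers were detected, with a median of -0.01 and summed signals of 48557 on the CeCl3 array, against 47717 on the control array. Gfap lay at 0.14 (-0.13 to 0.41), Aldh1l1 at -0.01 (-0.37 to 0.35) and Aqp4 at -0.33 (-0.59 to -0.08). The 9 detected subfield markers of the hippocampus had a median of 0.00, of which Bok (0.68, 0.18 to 1.17) and Zbtb20 (0.40, 0.09 to 0.71) had intervals above 0, with summed signals of 7667 on the CeCl3 array, against 7483 on the control array. Medians were 0.04 for choroid plexus markers (6 detected, Ttr 0.09, Folr1 0.09, Kl -0.40), -0.14 for endothelial and mural markers (5 detected on both arrays, Cldn5 0.10, Pecam1 -0.15, Cdh5 0.44) and 0.21 for the 2 detected erythrocyte markers. Of these, Alas2 lay at 0.54, while Hba-a1 lay at -0.11 and turned to 0.09 without quantile normalization. By the brightest probe, endothelial and mural markers had a bead interval below 0 for 1, Tek, at -0.56 (-1.03 to -0.10), and above 0 for 0. The dimmer detected probe of Cdh5 gave -0.21 (-1.07 to 0.64). Pituitary (Gh, Prl, Cga, Pomc) and pineal (Aanat, Tph1) markers were detected on neither array.

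**Figure D3:**
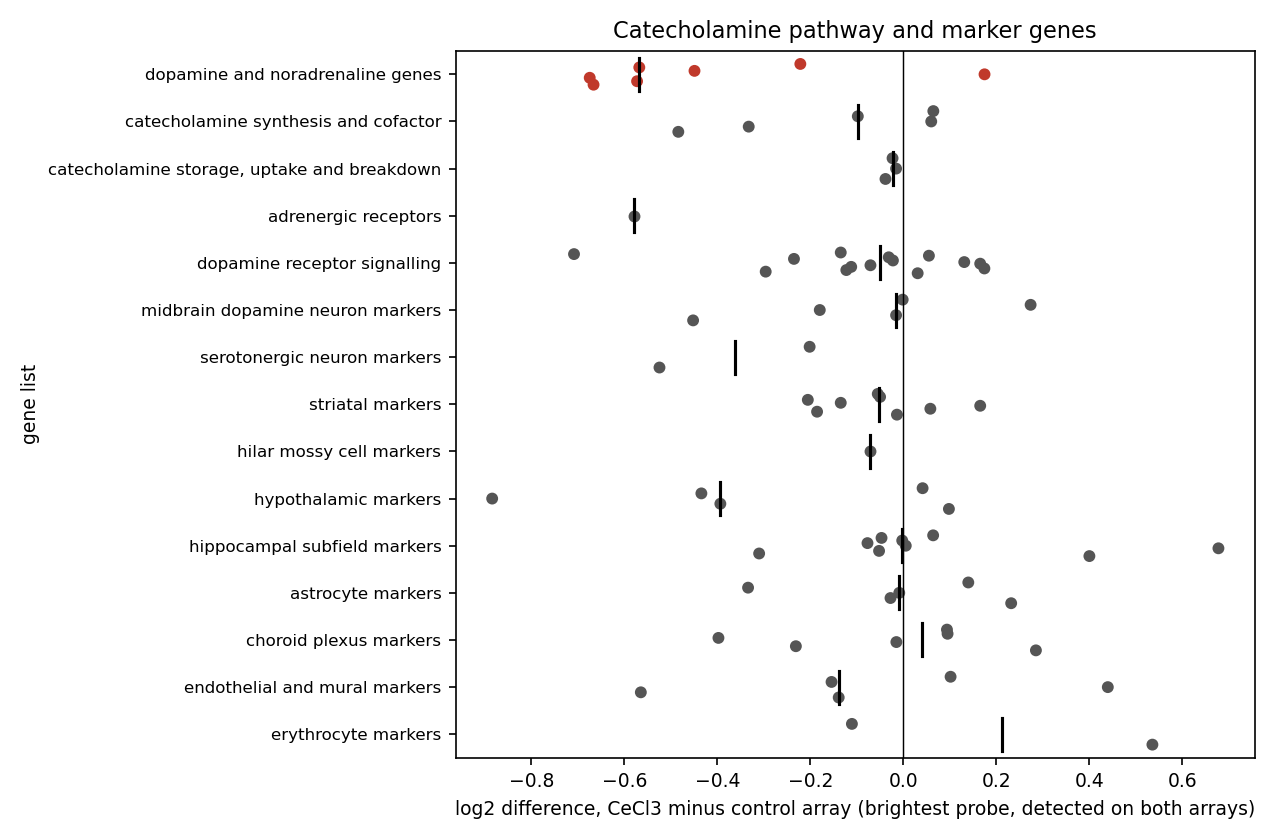
Log2 difference, CeCl3 minus control array, of the brightest probe of each gene detected on both arrays, by list (points), with list medians (black bars); red points are the 7 dopamine and noradrenaline genes detected on both arrays. The red median lies at -0.57, while the medians of the 14 detected signalling genes and the 8 striatal markers both lie at -0.05.

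The scaling between the arrays sets the size of these differences. In the deposited series matrix, taken without normalization between arrays, the median of all genes detected on at least 1 array was 0.18 in place of -0.04. Drd2 then lay at -0.40 (-0.81 to 0.02), Slc6a2 at -0.42 (-0.93 to 0.09), Th at -0.28 (-0.75 to 0.20), Slc6a3 at -0.41 (-0.64 to -0.19), Maob at -0.30 (-0.58 to -0.01) and Drd1 at 0.43 (0.09 to 0.77). Bead intervals there lay below 0 for 2 of the 7 genes detected on both arrays, against 3.8% of 9470 genes. These intervals use the bead standard errors of the main setting. Relative to the median of all genes kept under each setting, the median of these 7 stayed between -0.55 and -0.46 over all 12 settings. Values given above without quantile normalization start from the deposited signals, whose scales were already near equal. In the series matrix without normalization between arrays, Aldh1a1 lay at 0.31, Nr4a2 at 0.33 and Hba-a1 at -0.02.

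**Figure D4:**
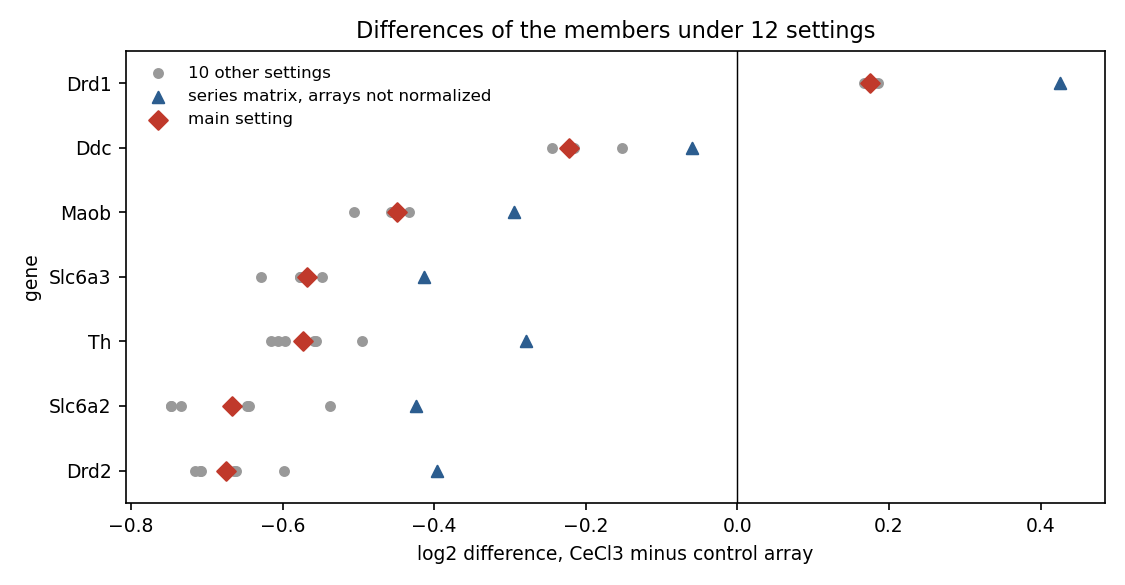
Log2 difference, CeCl3 minus control array, of the 7 genes detected on both arrays under the main setting (red diamonds), 10 other settings (grey points) and the series matrix without normalization between arrays (blue triangles). Drd2, Slc6a2, Th, Slc6a3, Maob and Ddc lie below 0 under every setting shown, and Drd1 lies above 0, between 0.17 and 0.43.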

How the data were processed

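Biotin-labelled cRNA of hippocampus was measured on Illumina bead arrays, per the labels' protocols. The submitters' processing notes name BeadStudio, with no version. The deposited table holds, per the file headers, a mean signal intensity per probe, the standard error over its beads, the bead number and an unadjusted detection p-value. The authors' intensity is background-subtracted, since 27.1% of deposited values on each array lie below 0. Its medians were 16.2 on both arrays, and its percentiles 50 to 99 differed by at most 0.51% between the arrays. The deposited signals thus appear already scaled to each other. The series matrix ranks probes alike (Spearman correlation 1) but has medians of 15.9 for CeCl3 and 14.2 for control, so its arrays appear not to be normalized to each other; scale and centring are known from the values alone.

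Signals were corrected with normexp in limma 3.58.1 (R 4.3.3), an offset of 16 and the background estimated through the deposited detection p-values. Quantile normalization and log2 followed; differences of dim probes shrink towards 0 through the offset. The deposited bead standard errors were carried to the log2 scale, and bead intervals span 1.96 of them. Intervals around series matrix values use the log2 standard errors of the main setting. The steps were tested on simulated data. Probes detected on at least 1 array entered, each gene stood by its brightest detected probe, and a gene detected on 1 array alone got a lower bound against the lowest detected signal of the other. Gene names come from the platform annotation (34885 probes with 1 symbol, 18 with several, 10378 unnamed here), of which 34807 matched a RefSeq table of GRCm38.p6 by gene number.

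Genes named were all 9 members, a fixed set of catecholamine genes, the 4 with the largest absolute difference in each pathway list, and the first 3 of each marker list; others given by name, such as Ret, En2, Avp and the sex-linked genes, were picked with their values in view. The members and lists were chosen with earlier results of these data known. With 1 array per group, samples could not be tested against each other.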

Additional observations from a re-analysis of the deposited data

How the results depend on the processing

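No paired analysis was possible because each group has 1 array. Of 11 alternatives, 10 were planned and 1, the series matrix without normalization between arrays, was added after seeing the data. The number of members lower on the CeCl3 array was 6 under all 11, of 7, 8 or 9 members measured. Among all genes kept, 53.8% to 57.7% were lower under the 10 planned, and 27.4% in the added one. Not all of the 11 could move the number of members. Changes of the detection filter left the 7 genes detected on both arrays at their main values, and averaging over probes changed only Ddc. The number of members with a bead interval below 0 was 5 or 6 under the first 10, against 9.28% to 16.2% of all genes kept. It was 2 in the added one, against 4.38% of genes kept, where the whole scale shifted upwards. Percentiles 50 to 99 of the deposited signal already differed by at most 0.51% between the arrays. Settings that start from that signal therefore hardly vary the scaling between arrays, which the added one does vary. There the median of the wider catecholamine list turned to 0.14, against a median of 0.18 over all genes, and the dimmer Ddc probe turned to 0.14. Over all 11 alternatives Drd2 ranged from -0.72 to -0.40, Slc6a2 from -0.75 to -0.42, Slc6a3 from -0.63 to -0.41, Th from -0.62 to -0.28, Maob from -0.51 to -0.30, Ddc from -0.24 to -0.06 and Drd1 from 0.17 to 0.43. For Drd4, Maoa and the undetected probes, signal over background is the limit.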
